A study of Peromyscus californicus with 17 samples.

Results

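Cenpn, Gfra3 and CUNH11orf87 are 3 of the 27786 genes measured in the lungs of 17 male *Peromyscus californicus*, a monogamous deer mouse. They were chosen by their measured values: in each of them bonded and bond-disrupted animals that carry the same number, and are siblings, differed less on the whole than animals of different sibling pairs. Exceptions were 1 pair of brothers that differed in CUNH11orf87, and Cenpn, in which a single pair stood apart. The likeness of siblings is therefore how the genes were selected and is given as a description, with no test. All 3 genes had enough reads to enter the comparisons, as had 17765 genes in all.

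The animals came from a genetically diverse captive stock (IS) and fell into 3 groups, with 1 lung library each. Bonded males (B1 to B6) had lived with a female for 4 months. Bond-disrupted males (BD1 to BD6) had been paired for the same time, were then taken from the mating cage, and were collected at day 7. Virgin males (V2 to V6), of similar age, were kept 3 to a cage by the study's methods, though its results also mention smaller groups. B and BD animals with the same number are brothers, V2, V5 and V6 are brothers of the pair with their number, and V3 and V4 are cousins of theirs. A family thus has at most 1 animal per group, and family 1 has no virgin. The depth of the libraries, in units of 1000000 reads assigned to genes, was 30.8 to 68.2 (median 44.0). Lung markers were abundant in every library, the summed level of 5 epithelial markers (Sftpc, Sftpb, Ager, Scgb1a1 and Foxj1) being 75035 to 194807 FPKM.

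Cenpn encodes a centromere protein that recognises the nucleosomes containing the histone CENP-A and helps to build the constitutive centromere-associated network, on which the kinetochore assembles in dividing cells. Gfra3 encodes a receptor anchored to the cell surface by a lipid, which binds the growth factor artemin and signals through the tyrosine kinase RET, and it is best known from sensory and sympathetic neurons. CUNH11orf87 is an uncharacterised open reading frame, a gene named by its place in the genome and not for a function. Differences in level that run in families are a usual feature of an outbred stock, in which litters inherit different regulatory variants, and litters also share a nest.

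FPKM is the number of fragments per kilobase of gene length and per 1000000 fragments in the library. In the deposited table the values of each column had been divided by the length of another gene, the one lying as many rows above as the column's place in the table, so that a gene's 17 values rested on 17 lengths. For Cenpn these ranged from 133 to 9816 bases, for Gfra3 from 424 to 16696 bases and for CUNH11orf87 from 451 to 9098 bases. The recovered lengths of the genes themselves were 2108, 1899 and 6522 bases. The lengths were solved so that values become whole numbers of reads, and each of the 51 values of these genes did so. All levels below were recomputed with the gene's own length and are called own-length FPKM.

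The correction changed which animal stood out for Cenpn. As deposited, it was highest in V3 at 10.2 FPKM, where the length of a gene of 133 bases had been used, and V3 held only 61 reads of Cenpn. With its own length Cenpn was lowest in V3, at 0.645 FPKM, and highest in B3 and BD3. The SD of the log2 levels over the 17 animals fell from 1.43 to 1.11 for Cenpn, from 2.06 to 1.24 for Gfra3 and from 3.36 to 2.37 for CUNH11orf87, while the median SD over all 17765 genes fell from 1.46 to 0.27. Each of the 51 values shared its length with 8 to 13 other genes. The median of those genes lay −0.32 to 0.24 on the log2 scale from their usual level. The lengths were fitted in part on this likeness, so these medians are no independent check of them.

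**Figure D1:**
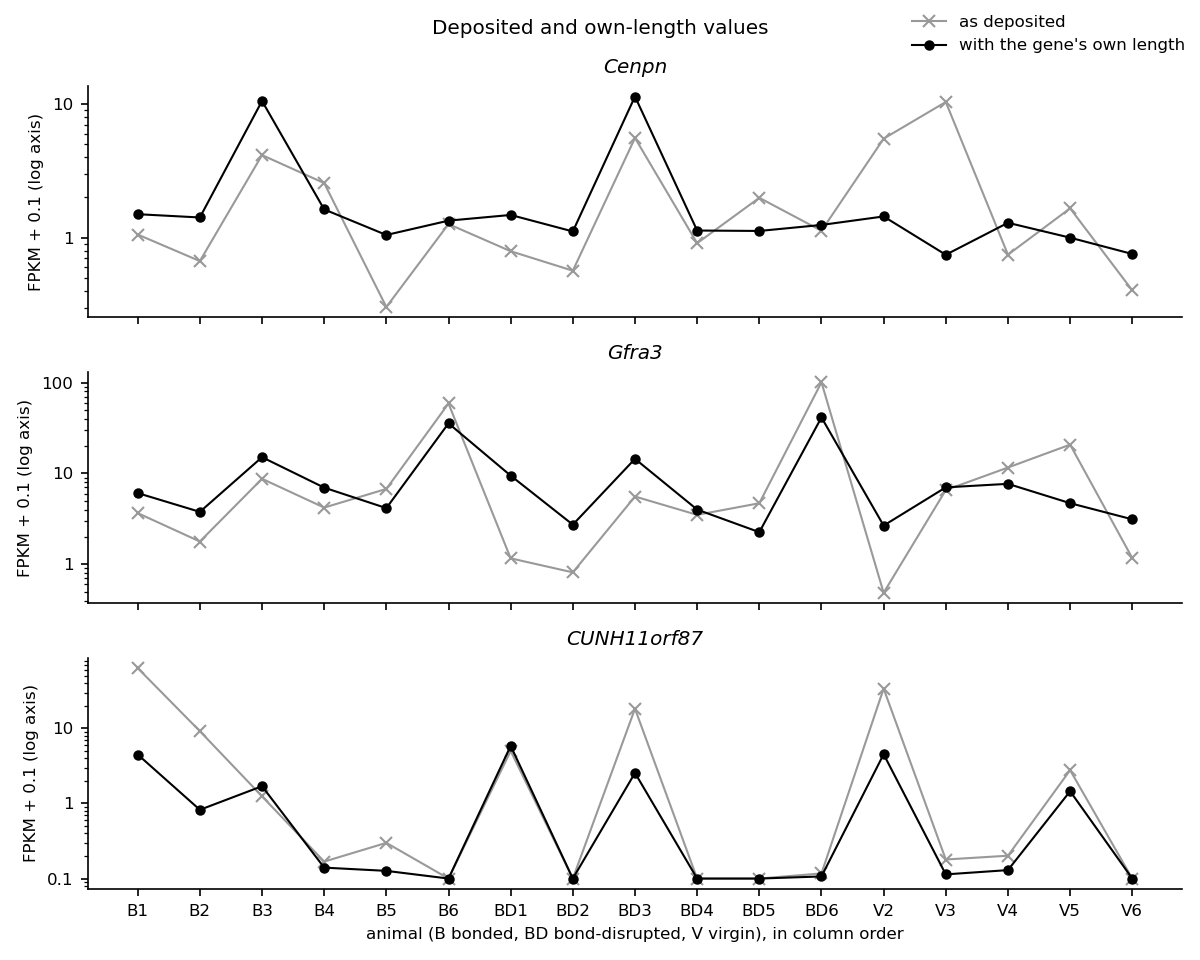
Levels of the 3 genes in each of the 17 lungs in column order (horizontal axis), as deposited (grey crosses) and after division by the gene's own length (black circles), in FPKM plus 0.1 on a log axis. The peak of deposited Cenpn in V3 (10.2 FPKM) becomes the lowest value (0.645), and B3 and BD3 (10.4 and 11.2) become the only high ones.

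Cenpn was high in a single family. Its level was 10.4 FPKM in B3 (1496 reads) and 11.2 FPKM in BD3 (1039 reads). In the other 10 bonded and bond-disrupted animals it lay between 0.947 and 1.53 FPKM (69 to 139 reads), with a mean of 1.20 ± 0.198 (SD, n = 10), so the mean of the pair was 9.01-fold higher. Neither animal of the pair came near the range of the others, and the brothers differed from each other by 1.08-fold.

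The remaining spread of Cenpn was small. Among those 10 animals the coefficient of variation was 16.5%, counting alone gives an error of 12 to 17% at these numbers of fragments, and the intraclass correlation over the other 5 pairs (the share of the variance that lies between pairs) was 0.27. In the virgins Cenpn was 1.34 FPKM in V2, 0.645 in V3, 1.19 in V4, 0.900 in V5 and 0.655 in V6. No virgin reached the level of pair 3. The cousin of that pair, V3, had the lowest level of the 17 animals, 16.8-fold below the mean of its pair.

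Gfra3 was high in 2 families at different levels. Its level was 35.4 FPKM in B6 and 41.2 in BD6, and 15.0 in B3 and 14.4 in BD3. In the other 8 bonded and bond-disrupted animals it ranged from 2.16 to 9.35 FPKM, with a mean of 4.83 ± 2.41 (SD, n = 8). Pair 6 was thus 7.94-fold and pair 3 was 3.04-fold above that mean, and the 4 animals lay above all others.

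Below these pairs the families were less distinct in Gfra3. Pair 1 held the next levels, 5.98 FPKM in B1 and 9.35 in BD1, followed by pair 4 with 6.88 in B4 and 3.90 in BD4. Pair 2 (3.68 and 2.63 FPKM) and pair 5 (4.05 and 2.16 FPKM) were lowest. The ranges of pairs 1 and 4 overlapped, as did those of pairs 4 and 5 and of pairs 2 and 5, and the counting error of single values (2.37 to 10.2%) was smaller than these differences between brothers. In the virgins Gfra3 was 2.57 FPKM in V2, 6.92 in V3, 7.58 in V4, 4.61 in V5 and 3.03 in V6. V6, a brother of the pair with the highest level, was 12.7-fold below its mean and within the range of the other virgins.

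CUNH11orf87 was present in some lungs and close to absent in others. It was highest in pair 1, at 4.39 FPKM in B1 (934 reads) and 5.76 in BD1 (1798 reads), followed by pair 3, at 1.60 FPKM in B3 (712 reads) and 2.45 in BD3 (702 reads). Pair 2 was split, with 0.724 FPKM in B2 (184 reads) and 0 reads in BD2. The 6 animals of pairs 4, 5 and 6 had at most 8 reads, or 0.040 FPKM.

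At the low end the reads set a limit. CUNH11orf87 had 0 reads in 5 of the 17 animals, and 8 animals were at or under 3 fragments (6 reads), which is the number that a count of 0 allows and corresponds here to 0.0135 to 0.0299 FPKM, for counting error only. The 3 of them with reads were B5 with 6, V3 with 4 and BD6 with 2, and at this depth these could not be told from 0. In the virgins it was 4.43 FPKM in V2 (1268 reads) and 1.36 in V5 (336 reads), against 0.014 in V3 (4 reads), 0.030 in V4 (8 reads) and 0 reads in V6. V2 is a brother of the split pair 2, in which B2 had the gene and BD2 did not. V5 had it while the brothers of pair 5 had 6 and 0 reads, and V3 had next to none while its cousins of pair 3 had 712 and 702 reads.

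**Figure D2:**
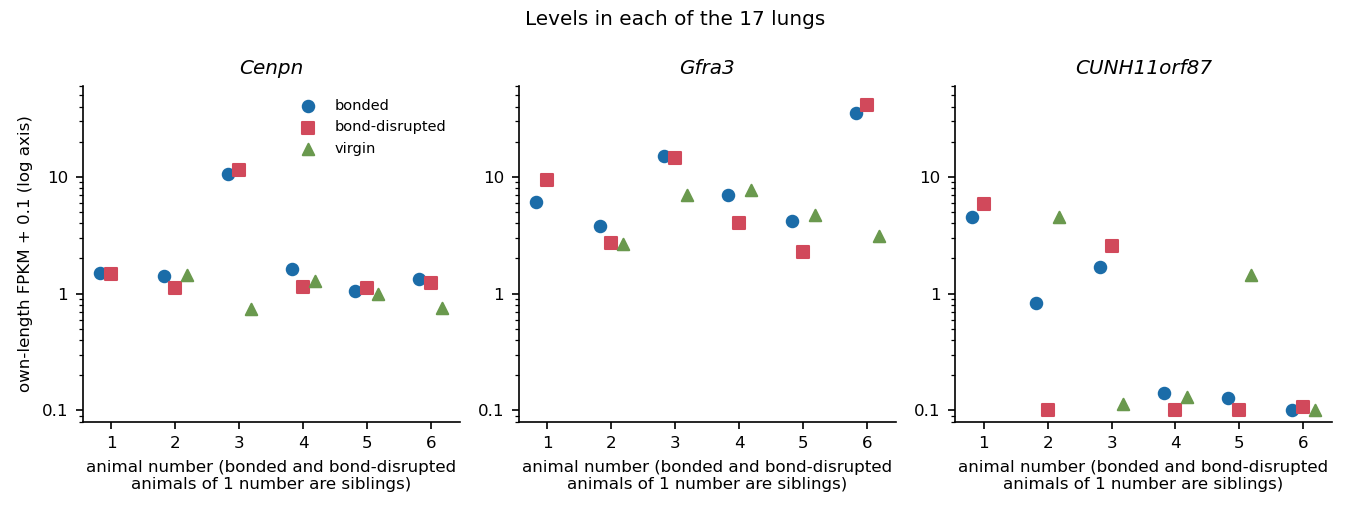
Own-length FPKM plus 0.1 on a log axis for each animal, by animal number (horizontal axis) and group (circles bonded, squares bond-disrupted, triangles virgin), with 1 symbol per animal. Cenpn is high in B3 and BD3 alone (10.4 and 11.2 FPKM), Gfra3 in pairs 6 and 3, and CUNH11orf87 in pairs 1 and 3 and in V2 and V5, while V3 and V6 lie far from the pairs of their number for Cenpn and Gfra3.

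The levels of the 3 genes were split into variance between and within the 6 pairs, after the mean of each group was removed, on log2(own-length FPKM + 0.1). The intraclass correlation, the share of the variance that lies between pairs, was 0.980 for Cenpn, 0.914 for Gfra3 and 0.862 for CUNH11orf87, and the ratio of the mean squares was 98.6, 22.2 and 13.5. These values chose the genes and support nothing. Of all 17765 genes tested, 18.5% had an intraclass correlation above 0.5, with a median of 0.13 over all genes. By the ratio Cenpn ranked 4, Gfra3 76 and CUNH11orf87 212. Riok2, a kinase of ribosome maturation, stood just above Cenpn (ratio 105.9) and LOC128105610 just below it (89.7). Gfra3 stood between LOC128108517 and Nmi, an interferon-induced gene (both 22.2), and CUNH11orf87 between CUNH12orf56 (13.5) and the malic enzyme gene Me2 (13.4).

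**Figure D3:**
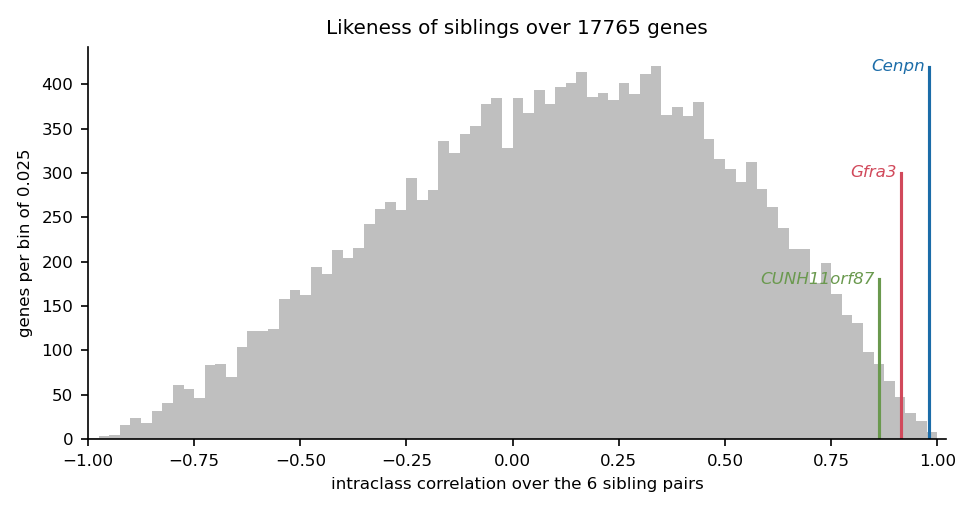
Number of genes (vertical axis, bins of 0.025) at each intraclass correlation over the 6 pairs of bonded and bond-disrupted brothers (horizontal axis), for the 17765 genes tested. Coloured lines mark CUNH11orf87 (0.862), Gfra3 (0.914) and Cenpn (0.980), in the upper tail of a distribution whose median is 0.13.

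The same likeness can be read as differences between animals. For Cenpn, brothers differed by 0.20 ± 0.13 on the log2 scale (mean absolute difference ± SD, n = 6 pairs), against 1.19 ± 1.37 for the 30 combinations in which a bonded animal met a bond-disrupted one of another family. For Gfra3 these values were 0.49 ± 0.26 and 1.72 ± 1.08. For CUNH11orf87 they were 0.86 ± 0.93 and 2.83 ± 2.15, and the largest within-pair difference was that of pair 2.

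How far the likeness rested on 1 family differed between the genes. Without pair 3 the intraclass correlation of Cenpn was 0.27. Without pair 6 that of Gfra3 was 0.80, and without pair 3 it was 0.91. For CUNH11orf87 it was 0.74 without pair 1 and 0.99 without the split pair 2. The values of Cenpn thus describe 1 family that stood apart, and those of the other genes several families at different levels.

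The 3 genes shared 1 of their high families. Pair 3 was among the high ones for all 3, but pair 6 was highest for Gfra3 and had at most 2 reads of CUNH11orf87, and pair 1 was highest for CUNH11orf87 and in the range of the rest for Cenpn. Across the 17 animals, with group means removed, Pearson's r was 0.32 for Cenpn with Gfra3, 0.52 for Cenpn with CUNH11orf87 and 0.0049 for Gfra3 with CUNH11orf87. Animals of a pair are relatives, so these are descriptions over fewer than 17 independent animals.

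A pair that stood apart by more than 2-fold was uncommon among all genes. Both animals of pair 3 were above the other 10 bonded and bond-disrupted animals in 2.34% of the genes tested (415 genes), both of pair 6 in 2.28% (405 genes) and both of pair 1 in 2.09% (371 genes). For pairs 2, 4 and 5 there were 268, 189 and 315 such genes. With a margin of more than 2-fold the share was 0.0169% for pair 3, which is 3 genes: Cenpn, the interferon-induced chemokine gene Cxcl10 and LOC128105635. For pair 6 it was 0.0619%, which is 11 genes: Gfra3, A4gnt, Cdh2, Elavl3, Rph3a, Slc4a10 and 5 genes known only by a LOC number. CUNH11orf87 did not have this margin, because pair 3 (1.60 and 2.45 FPKM) followed pair 1. These genes were counted with Cenpn and Gfra3 in view, and both were selected on such values. Both animals lay more than 2-fold below the other 10 in 5 of the 17765 genes for pair 3, 3 for pair 6 and 5 for pair 1.

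The virgins were not used to choose the genes, and their levels allow a test of whether relatives in the third group had similar levels. Log2 levels were centred first: the mean of the virgins, those of the bonded and bond-disrupted groups and that over the 5 pairs were removed. The differences are thus between deviations and not between levels. For each gene the absolute difference between a virgin and the mean of the pair with its number was compared with that for all other virgin and pair combinations. All 120 ways to assign the 5 virgins to pairs 2 to 6 were used (one-sided exact permutation test, smallest possible p 0.00833). For Cenpn a virgin was farther from its own pair (mean 1.18) than from the other pairs (0.96), with an exact p of 1 and an adjusted p of 1 over the 3 genes. That direction rested on V3, without which the difference was −0.057 and the exact p 0.417. For Gfra3 the means were 1.27 and 1.31 (exact p = 0.433, adjusted p = 0.9), and the direction turned without V2 (0.24) or V3 (0.21). For CUNH11orf87 they were 2.50 and 2.20 (exact p = 0.6, adjusted p = 0.9), and the direction turned without V3 (−0.47) or BD2 (−0.067). With the brothers V2, V5 and V6 alone, virgins were closer to their own pair in CUNH11orf87 (difference −0.60 on the log2 scale), and the exact p of 0.167 was the smallest that 6 assignments allow (adjusted p = 0.5). None of the 3 tests over the 5 virgins passed 0.05, which does not show that relatives in the third group had unlike levels.

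The number and the place of an animal in its group coincide in the B and BD columns but not in the V columns, where V2 comes first. With virgins set against the pair at the same place (V2 with pair 1, up to V6 with pair 5), they were closer to that pair than to the others in all 3 genes, by 0.18 for Cenpn (mean 0.84 against 1.03), 0.13 for Gfra3 (0.75 against 0.88) and 0.83 for CUNH11orf87 (1.81 against 2.63) on the log2 scale. None passed the test, with exact p values of 0.3, 0.35 and 0.183 and an adjusted p of 0.35 for each. For CUNH11orf87 the difference rested on V2, whose 4.43 FPKM lies by the 4.39 and 5.76 FPKM of pair 1: without V2 it turned to 0.63 in the opposite direction, with an exact p of 0.667 over 24 assignments. Without V5 it was −1.72 and without V4 −1.46, with exact p values of 0.0417, the smallest that 24 assignments allow, and 0.167 (adjusted p = 0.125 and 0.25). For Cenpn it was −0.32 without V2. That of Gfra3 turned direction without V4 (0.14) or V6 (0.019). The cause of either pattern was not tested.

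Virgins against bonded animals asks how lungs without a pair bond differ from lungs with one. In that comparison the virgins lay at −0.93 on the log2 scale for Cenpn (SE 0.63), −0.86 for Gfra3 (SE 0.72) and −0.26 for CUNH11orf87 (SE 1.44), each with an adjusted p of 1.00 by limma over all genes. The mean levels were 0.946 ± 0.313 FPKM (SD, n = 5) and 2.80 ± 3.73 (n = 6) for Cenpn, 4.94 ± 2.25 and 11.8 ± 12.3 for Gfra3, and 1.17 ± 1.91 and 1.13 ± 1.72 for CUNH11orf87. The high means of the bonded group were those of single animals: the medians of Cenpn were 0.900 FPKM in virgins and 1.36 in bonded animals, and without B3 the log2 difference was −0.44. Without B6 that of Gfra3 was −0.45. The direction of CUNH11orf87 turned to 0.48 with the animal number as a replicate block and to between 0.11 and 0.39 when B1, B3, V3, V4 or V6 was left out.

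Virgins against bond-disrupted animals asks the same for lungs after the bond was broken. The log2 difference was −0.80 for Cenpn (SE 0.63, limma adjusted p = 0.965), −0.64 for Gfra3 (SE 0.72, adjusted p = 0.965) and 0.21 for CUNH11orf87 (SE 1.44, adjusted p = 0.998). Without BD3 the difference of Cenpn was −0.26, and without BD6 that of Gfra3 was −0.13. CUNH11orf87 turned to between −0.67 and −0.12 when V2, V5, BD2, BD4, BD5 or BD6 was left out, and to −0.011 with a pseudocount of 1, and it was 0.95 with the animal number as a replicate block and 1.68 by voom. The virgins' levels of each gene overlapped with those of both other groups.

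None of the 3 genes was called in either comparison, at an adjusted p under 0.1 and a change of at least 2-fold, and neither was any other gene: 0% of the 17765 genes were called against bonded and 0% against bond-disrupted animals. At an unadjusted p under 0.05 there were 673 and 768 genes by limma, and limma's voom on the recovered reads called 0 in both, with 604 and 778 at an unadjusted p under 0.05.

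Between bonded and bond-disrupted brothers, the difference the selection itself used, there was no common direction. The bond-disrupted brother had more Cenpn in 2 of 6 pairs, more Gfra3 in 2 of 6 and more CUNH11orf87 in 3 of 6. The mean differences (bond-disrupted minus bonded, log2 scale) were −0.13 ± 0.26 (SD, n = 6 pairs) for Cenpn, −0.23 ± 0.60 for Gfra3 and −0.47 ± 1.33 for CUNH11orf87. Each mean was smaller than its SD over pairs. Leaving out 1 pair gave −0.052 for Cenpn (pair 4), and −0.096 (pair 5), −0.11 (pair 4) or −0.40 (pair 1) for Gfra3. That of CUNH11orf87 rested on pair 2 (−3.04), without which it turned to 0.048, and it was −1.44 with a pseudocount of 0.01 and −0.022 with a pseudocount of 1. These differences are given as a description.

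Neighbouring genes show whether likeness of siblings extended along the sequence. The 5 annotated genes on each side of each member were taken in RefSeq order (assembly ASM782708v3), none of which overlaps its member in that annotation, and 21 of these 30 neighbours were measured well enough. Of these, 3 had an intraclass correlation above 0.5, a share no larger than the 18.5% over all genes, and the median of the 21 was −0.07.

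For Cenpn 2 of 7 neighbours passed 0.5. Cmc2, the next gene and a factor in the assembly of cytochrome c oxidase, had 0.88 and ranked 150. It was highest in pair 3 within each group (11.1 FPKM in B3 and 11.9 in BD3) and lowest of all 17 animals in V3 (5.03), where Cenpn was lowest too, with an r of 0.57 to Cenpn over the 17 animals. Its range was narrow, and B1 and BD1 followed at 10.6 and 10.8 FPKM. Atmin, a gene of the DNA damage response on the other side, had 0.78, with levels of 5.11 to 7.21 FPKM and an r of −0.34 to Cenpn.

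Around Gfra3 no neighbour of 8 passed 0.5, the highest being Reep2 (0.41) and the lowest the histone demethylase gene Kdm3b (−0.79). The nearest measured ones, the cell-cycle genes Cdc23 (−0.33) and Cdc25c (−0.11), did not follow the families. Around CUNH11orf87 1 of 6 passed 0.5, the RNA helicase gene Ddx10 (0.53). Ddx10 was highest in B1 (5.34 FPKM), BD1 (5.42) and V2 (5.18), the animals with the most CUNH11orf87, and was 3.18 to 4.56 FPKM in the others, with an r of 0.58.

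**Figure D4:**
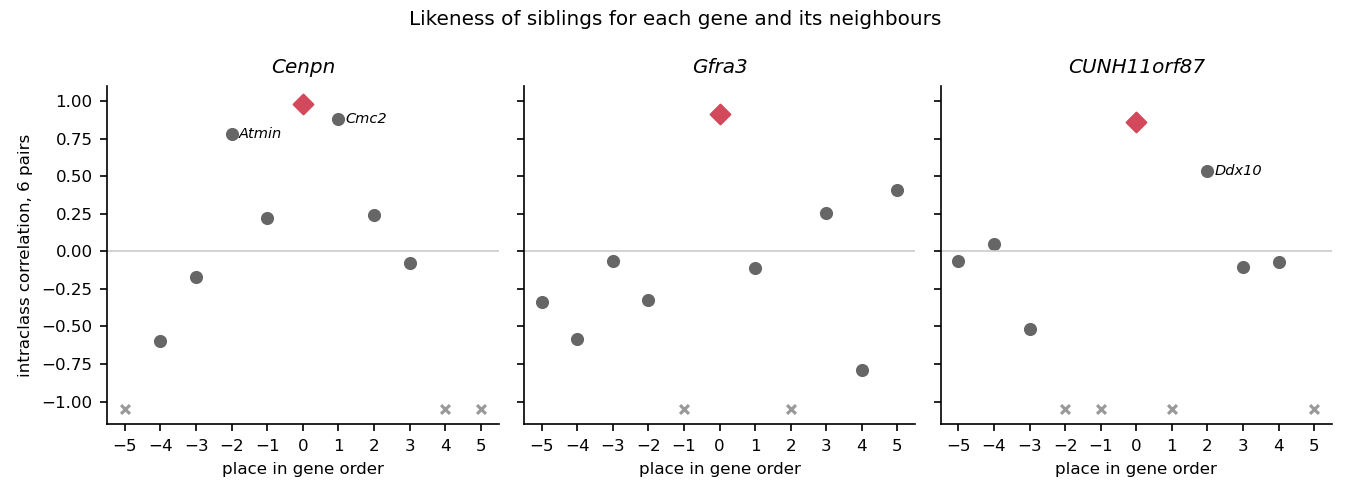
Intraclass correlation over the 6 pairs (vertical axis) for each member (red diamond) and its 5 annotated neighbours on each side (grey circles), by place in gene order (horizontal axis, member at 0). Crosses at the bottom mark neighbours with too few reads or no row in the table, and the named circles (Cmc2 0.88, Atmin 0.78, Ddx10 0.53) are the 3 above 0.5.

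Across the 17 animals each gene had others that followed it, measured as Pearson's r on the log2 scale with group means removed, as a description over relatives. The 5 genes most like Cenpn were Nsun2, an RNA methyltransferase (0.91), the kinase gene Mknk1 (0.84), Syt8 of the synaptotagmin family (0.84), the phosphatase gene Ptpn2 (0.83) and LOC128105635 (0.83). All 5 were highest in B3 and BD3. Their margins differed: Nsun2 was 17.9 and 19.3 FPKM there and 14.4 to 16.3 in the other 15, whereas LOC128105635 was 5.90 and 6.45 FPKM there and 0.283 to 2.21 elsewhere.

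The genes most like Gfra3 included Mvd (0.88), Rab15 (0.87), LOC128102990 (0.86) and Lss (0.86). Mvd and Lss encode enzymes of cholesterol synthesis, and Rab15 a GTPase of endosome recycling. Mvd was 14.6 FPKM in B6 and 16.9 in BD6, and 7.18 to 13.5 in the other 15 animals. Its range over the animals was far narrower than that of Gfra3 (2.16 to 41.2 FPKM).

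CUNH11orf87 was followed most closely by Ino80c, a subunit of a chromatin remodeller (0.88), the thioesterase gene Acot8 (0.87), Mak16 of ribosome production (0.86), the glycosyltransferase gene Galnt1 (0.86) and the ubiquitin-conjugating enzyme gene Ube2q2 (0.84). Ino80c was 2.85 and 4.78 FPKM in B1 and BD1, 2.79 and 3.16 in B3 and BD3 and 3.72 in V2. In the other 12 animals it was at most 1.90 FPKM, including V5, which had CUNH11orf87. The animals high in Ino80c were those with the 5 highest levels of CUNH11orf87, and they came from pairs 1 and 3 and from V2.

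**Figure D5:**
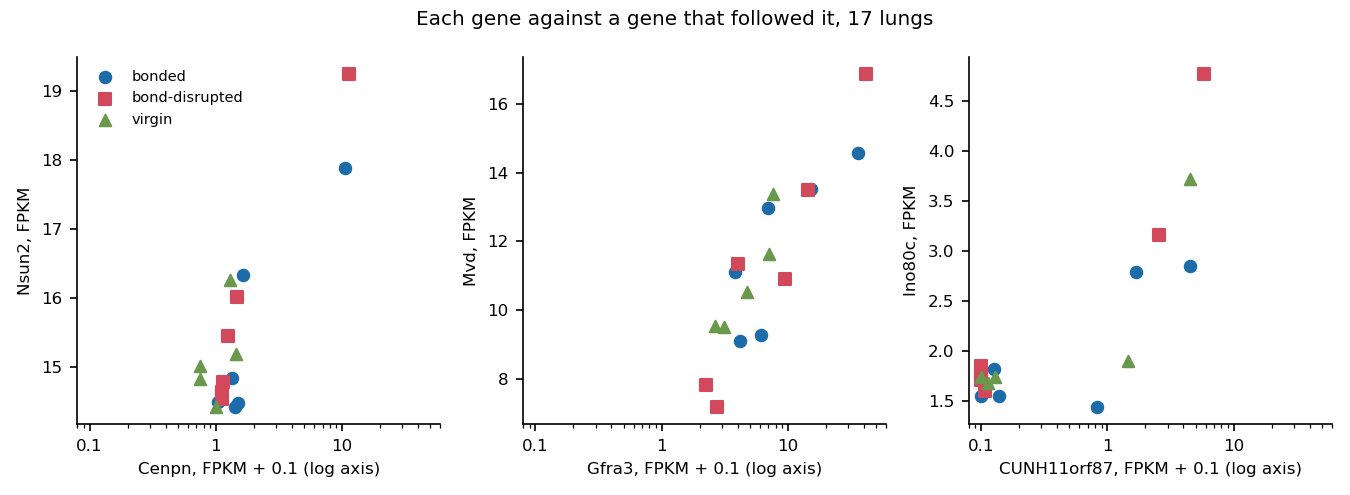
Level of a gene that followed it closely (vertical axes, FPKM) against each member (horizontal axes, own-length FPKM plus 0.1, log axis), 1 symbol per animal (circles bonded, squares bond-disrupted, triangles virgin). B3 and BD3 stand apart for Cenpn with Nsun2 (r = 0.91), Mvd is highest in B6 and BD6, as is Gfra3 (r = 0.88), and Ino80c is at 2.79 FPKM or more in B1, B3, BD1, BD3 and V2 and at most 1.90 in the other 12.

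The other genes of the centromere network and of CENP-A loading did not follow Cenpn. Of 25 listed symbols 21 were in the table and 19 were tested. None was called in either comparison of virgins, and the median log2 difference was −0.03 in both, beside 0 calls over all genes. The highest and lowest differences from bonded animals were those of Cenps (0.42), of the network, and Mis18a (−0.29), of the CENP-A loading complex. An intraclass correlation above 0.5 was found in 6 of the 19, beside 18.5% over all genes. The summed level of the list was 116.4 and 121.6 FPKM in B3 and BD3, within the range of the other animals (104.7 to 136.8).

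Some proliferation markers were highest in pair 3. Of 20 listed genes 19 were tested, none was called, and the median log2 difference of virgins was −0.00031 against bonded and 0.01 against bond-disrupted animals. The extremes against bonded animals were Mcm2, of the replicative helicase (0.25), and Cdk1, the mitotic kinase (−0.45). In 5 of the 19 (Aurka, Birc5, Kif11, Mcm5 and Rrm2) both animals of pair 3 were highest, beside 2.34% over all genes. Their margins were small, as for Kif11, a mitotic motor, with 1.05 and 1.37 FPKM against at most 1.04 in the other 10. The summed level was 90.2 FPKM in B3 and 106.3 in BD3, against 62.6 to 95.4 in the other 15 animals, and Cenpn differed 9.01-fold. Their part in the level of Cenpn was not tested.

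Of the ligands and receptors of the GDNF family, to which Gfra3 belongs, 13 were listed and 12 tested. None was called, and the median log2 difference of virgins was 0.04 against bonded and −0.04 against bond-disrupted animals, the highest and lowest against bonded being Ret (0.57) and the ligand gene Nrtn (−0.30). Artn, the gene of the ligand of Gfra3, was 0.310 and 0.218 FPKM in B6 and BD6, within 0.147 to 0.520 in the other 15. The signalling receptor gene Ret was 4.25 and 5.47 FPKM there, within 2.52 to 7.98 in the others. In pair 6 none of the 12 was highest in both animals, beside 2.28% over all genes. In pair 3, where Gfra3 was at its intermediate level, 2 were highest in both animals, beside 2.34% over all genes. They were Artn (0.450 and 0.520 FPKM against at most 0.436) and Nrtn (10.4 and 8.81 against at most 8.58).

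Markers of other cell types differed between the brothers with the most Gfra3. In bulk tissue, more cells of a type and more RNA per cell cannot be told apart. The summed level of 12 sensory neuron markers was 52.9 FPKM in BD6, against 5.63 in B6 and 2.48 to 5.75 in the other 15 animals. In BD6 the neuronal genes Tubb3 (11 FPKM), Uchl1 (14.0), Tac1 (8.42) and Elavl4 (4.09) were above all other animals, and so was Ncam1 (12.9 FPKM). In B6, with its 35.4 FPKM of Gfra3, Tac1 was at 0, Elavl4 at 0.0092 and Tubb3 at 0.123 FPKM. Elavl3, a neuronal RNA-binding protein gene outside that list, was above all other animals in both brothers, at 1.26 FPKM in B6 and 1.46 in BD6 against at most 0.669. So was Cdh2, the N-cadherin gene, at 4.52 and 25.3 FPKM against at most 3.18. Prph, an intermediate filament gene of peripheral neurons, was 1.33 FPKM in B6 and 6.81 in BD6 against 0.412 to 1.33 in the other 15 animals. It was the only marker of the 12 in which both lay above the other 10 bonded and bond-disrupted animals (at most 1.12), beside 2.28% over all genes, and a virgin matched B6. The sodium channel gene Scn9a was 2.44 and 2.40 FPKM, within 0.175 to 2.91 in the other 15 animals (median 1.12). The nociceptor gene Scn10a was at 0 in BD6 and at most 0.029 FPKM in any animal, and Pou4f1 at most 0.119. The level of Gfra3 was 1.16-fold higher in BD6 than in B6.

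Other marker lists moved with a pair in part. The summed level of 6 cardiac muscle markers was 545 FPKM in B6 and 132 in BD6, against 52.7 to 406 in the other 15 animals, and the lowest were the animals of pair 3 with 52.7 and 92.1. Leukocyte markers summed to 335 and 325 FPKM in B3 and BD3, 140 and 391 in B6 and BD6 and 69.1 to 289 in the other animals. The sum of 8 fibroblast markers was 1187 FPKM in B6 and 923 in BD6 (923 to 1565 over all animals). That of 3 endothelial markers was 363 and 285 FPKM (285 to 556), that of 4 Schwann cell markers 160 and 144 (144 to 257) and that of 6 neuroendocrine markers 19.9 and 18.9 (14.6 to 44.4). BD6 had the lowest fibroblast, endothelial and Schwann cell sums of all animals. The Schwann cell sum was mostly Pmp22 (mean 196 FPKM), which was lowest in BD6 (140). Mbp, S100b and Cdh19 were not lowest there, and Mbp was 4.07 FPKM in a range of 1.39 to 4.33. Of the fibroblast markers Dcn (mean 750 FPKM, the largest part of the sum), Tcf21 and Pdgfrb were lowest in BD6. Lum in BD6 (94.1 FPKM) was above the other 10 bonded and bond-disrupted animals (at most 92.9). The part of these lists in the levels of the 3 genes was not tested.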

How the data were processed

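The study sequenced lung RNA of 17 males with a strand-specific kit and deposited a single table. Per the labels' processing notes the tools included Trim Galore 0.4.5, STAR 2.7.2, SAMtools 1.5, FastQC and featureCounts of Subread 1.5.3. The genome build and annotation are not given in the sources used here. The authors deposited FPKM for 27786 genes in 17 columns, 1 per animal, and 0 columns were left over. FPKM divided by the wrong length moves a value by the ratio of the lengths, so depth and lengths were solved as the values that make FPKM times length times depth a whole number of reads (2 per fragment). Of 135275 recovered values under 200 reads, 98.3% lay within 0.02 of a whole number. Levels were rebuilt on the right length for the 27018 genes recovered in all animals, and the 17765 of them with a mean of at least 10 reads were tested, on log2(FPKM + 0.1).

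Groups came from the labels and kinship from the study's text and figure. Its words spell out only families 2 and 3 and say that 2 virgins were cousins. The other relations, among them those of V4, V5 and V6, rest on the figure. Group comparisons used limma 3.58.1 in R 4.3.3, two-sided, with the 3 groups in 1 fit and Benjamini-Hochberg adjustment over all genes. Virgins were compared with pairs by exact permutation on centred log2 levels, with numpy 2.4.6 and pandas 2.3.3 under Python 3.11.15. The animals are separate individuals but relatives, so p-values treat kin as independent. A level from few reads has a large counting error, and intervals and floors cover counting error only. Steps were tested on simulated data. The members, gene lists and tests were chosen with earlier results of these data known. Genes named beside the members are from the 5 most like each, the 5 neighbours on each side, those next in rank and the called or extreme genes of each list. The genes in which a pair stood apart, and the marker genes of pairs 3 and 6, were named after their values were seen. Alternatives were the deposited values, an additive fit of the diagonal, pseudocounts of 1 and 0.01, a median-ratio factor, group means left in, other filters and limits, a trend, only 2 groups, voom, the animal number as a block, and leaving out each animal. All 27786 gene names matched RefSeq symbols of ASM782708v3, used for gene order only. Sequences were not used here. Values of 2 genes that this rule or a list would name are not reported here.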

Additional observations from a re-analysis of the deposited data

Results flagged for a closer look

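The genes were selected for pairs that stand apart, so the gaps given here follow from that choice, are a description and are no test. On own-length FPKM, Dixon's ratio sets the gap between the highest animal of a group and the next one against the whole range of the group. For Cenpn the gap was 0.939 of the range in bonded animals (B3) and 0.964 in bond-disrupted animals (BD3). For Gfra3 it was 0.644 in bonded (B6) and 0.687 in bond-disrupted animals (BD6), and for CUNH11orf87 it was 0.636 in bonded animals (B1). These 5 of the 9 sets of 1 gene in 1 group lay past Dixon's limit, which chance passes in about 1 in 20 sets of genes not chosen in this way. B3 and BD3 are brothers, as are B6 and BD6, and their gaps are not independent. In the virgins no set lay past the limit.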

How the results depend on the processing

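The cause of the changes below was not tested, beyond what an alternative's construction gives. With values as deposited, the intraclass correlation was 0.39 for Cenpn and 0.50 for CUNH11orf87, and 70 and 21 genes were called for virgins against bonded and bond-disrupted animals, none of them a member. The difference of virgins turned for Cenpn (0.71 and 0.57), and so did the tests against the same-number pair (−0.28 for Cenpn, −0.18 for CUNH11orf87) and the same-place pair (0.56 for Cenpn, 0.022 for Gfra3). The difference between brothers turned for Cenpn too (0.14), and that of CUNH11orf87 turned to 0.048 without pair 2; as deposited it was −1.40 for CUNH11orf87 and −0.57 for Gfra3. A pseudocount of 0.01 gave CUNH11orf87 an intraclass correlation of 0.77, and a pseudocount of 1 turned its difference between virgins and bond-disrupted animals to −0.011. With V2, V5 and V6 alone the same-number difference was 0.12 for Gfra3 and −0.60 for CUNH11orf87, where the exact p of 0.167 was the smallest that 6 assignments allow.

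Leaving out 1 animal (for the intraclass correlation, its pair) gave 0.27 to 0.99 for Cenpn, 0.80 to 0.96 for Gfra3 and 0.74 to 0.99 for CUNH11orf87. For virgins against the same-number pair it gave −0.057 to 0.36 for Cenpn (negative without V3), −0.40 to 0.24 for Gfra3 (positive without V2 or V3) and −0.47 to 0.74 for CUNH11orf87 (negative without V3 or BD2). For the same-place pair it gave −0.32 to −0.16 for Cenpn, −0.40 to 0.14 for Gfra3 (positive without V4 or V6) and −1.72 to 0.63 for CUNH11orf87. The difference of virgins for CUNH11orf87 ran from −1.13 to 0.39 against bonded and from −0.67 to 1.03 against bond-disrupted animals. Without B4, 1 gene was called for virgins against bonded animals, and 0 without any other animal. No exact test of a member passed 0.05 after adjustment under any of these alternatives, the lowest adjusted p being 0.125, and no member was called. With 4 virgins the smallest exact p is 0.0417.

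The animal number was also used as a replicate block. Same-numbered animals deviated together (r above 0.1 over all genes) in 5 of the 6 bonded and bond-disrupted pairs (0.096 to 0.38) and in 0 of the 10 pairs with a virgin (−0.27 to 0.085), so no likeness over all genes was seen between virgins and their kin, although the numbers mark kinship there too. With the replicate block the difference of virgins from bonded animals was −0.99 for Cenpn, −0.87 for Gfra3 and 0.48 for CUNH11orf87, that from bond-disrupted animals was −0.86, −0.65 and 0.95, and 0 genes were called in both comparisons. For CUNH11orf87 voom gave −0.98 and 1.68, a pseudocount of 0.01 gave −0.59 and 0.85, and the deposited values gave −0.62 and 0.78. Apart from the changes given above and beside the results, the alternatives kept the direction and called no gene. Depth limits Cenpn outside pair 3 and CUNH11orf87 outside the animals named above.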
